A study of Rattus norvegicus with 3 samples.

Results

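Genes of gap junctions, tight junctions and cell polarity were examined in cultured rat Schwann cell precursors. Members were taken by gene symbol, with earlier results of these data known: the connexins (Gja, Gjb, Gjc, Gjd and Gje genes), the pannexins, the numbered claudins, the ZO scaffold genes (Tjp), every gene whose symbol starts with Pard3 or Pard6, and Ocln, Marveld2, Marveld3, Mpp5 (also called Pals1), Mpdz, Crb2 and Crb3. This gave 58 of the 17337 genes listed: 18 connexins, 3 pannexins, 22 claudins, 3 genes of MARVEL-domain proteins, 3 ZO scaffold genes and 9 polarity genes. Gjc3 and Cgn were not analysed here.

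RNA was sequenced in 3 libraries of wild-type, untreated Schwann cell precursors. These are embryonic glia from which the Schwann cells of peripheral nerve arise. They came from dorsal root ganglia of embryonic rats and were grown in a modified Sato medium based on DMEM. All 3 libraries form 1 group, so the data give levels within these cultures and no contrast between conditions. The labels give no embryonic day and do not say that each library had a culture of its own, so SDs and p-values cover differences among these 3 libraries only, possibly of technical origin. The measurements are bulk: fewer cells of a type and less RNA per cell cannot be told apart.

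Connexins assemble into channels that join the cytoplasm of touching cells, and pannexins form channels that open to the outside of the cell. Claudins are the membrane proteins that seal or make selective the tight junction, where the ZO scaffold proteins tie them and occludin to the actin cytoskeleton. The PAR and Crumbs complexes place such junctions and tell one side of a polarised cell from the other. In the mature nerve, myelinating Schwann cells build gap and tight junctions between layers of their own membrane, and perineurial and endothelial cells build the barriers around the nerve.

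Total counts were 15309526, 14139074 and 14162738 in libraries 1, 2 and 3. Levels are in TPM (counts per unit of gene length, summing to 1000000 in each library), so that they can be compared between genes. All 8 Schwann lineage markers examined were above 1 TPM, including Sox10, the glial transcription factor, at 612 ± 26.0 TPM (SD, n = 3), and Ednrb, the endothelin receptor gene of early glia, at 1414 ± 16.7 TPM. Each gene with a count was tested with limma as log2(TPM + 1) against its value at 1 TPM, two-sided, with Benjamini-Hochberg adjustment over the 13345 genes tested and a threshold of 0.05. By this test 78.4% of all genes tested were above 1 TPM. Intervals and limits from counts cover counting error only, since reads carried no molecular identifiers.

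The cultures held a narrow selection of these genes at appreciable levels. Of the 58 genes, 42 had a count and were tested. By limma 20 of the 42 (47.6%) were above 1 TPM, where 78.4% of all genes tested were above, and 20 (47.6%) were below, where 17.8% of all genes tested were below. Gjb5 and Panx2 passed in neither direction, and 16 of the 58 (27.6%) had no count in any library, against 23.0% of all genes listed. The same 20 genes had at least 1 TPM in every library, which is 34.5% of the 58 against 60.6% of all genes listed. The median over the 42 genes with a count was 1.01 TPM, against 21.7 TPM over all genes with a count. Among the 20 the median was 23.1 TPM, against 34.3 TPM over all genes at 1 TPM or more in each library.

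**Figure D1:**
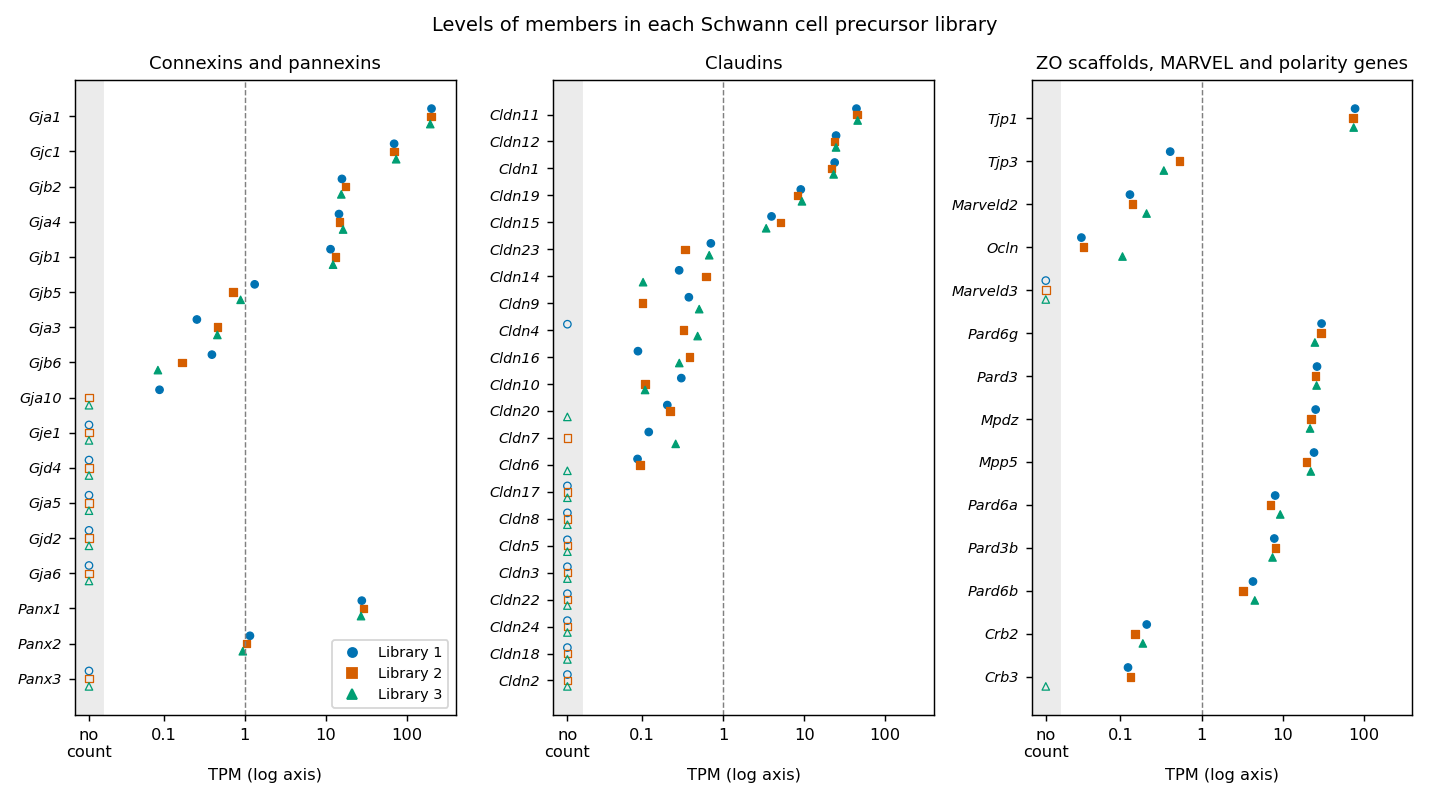
TPM of junction and polarity genes in each of the 3 libraries, on a log axis, with each family ordered by mean level within its panel. Open symbols in the grey strip are libraries with no count, the dashed line marks 1 TPM, and the genes right of the line in all 3 libraries run from Pard6b at 4.04 TPM to Gja1 at 198 TPM.

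Gja1 was the leading gene of the set. It encodes connexin 43, the most widely distributed connexin of mammalian tissues. It was at 202, 199 and 195 TPM in libraries 1, 2 and 3, and averaged 198 ± 3.53 TPM (SD, n = 3), rank 989 among all 17337 genes. On the log2(TPM + 1) scale it stood 6.64 ± 0.02 (SE) over the value at 1 TPM, with a limma adjusted p of 7.69e-14. In rn6 coordinates, taken from the deposited table, Gja1 (NCBI gene 24392) spans chromosome 20 positions 37876650 to 37889094 (plus strand, 2 listed exons).

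Gjc1, the gene of connexin 45, a connexin of early embryos and of the heart's conduction system, was second among the connexins analysed. It was at 69.7, 69.4 and 73.8 TPM in libraries 1, 2 and 3. The libraries were close to each other for both genes, and the lowest Gja1 value was far above the highest Gjc1 value. The log2 ratio of Gja1 to Gjc1 was 1.48 ± 0.07 (SD, n = 3), a 2.80-fold difference in level.

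The other 3 connexins above 1 TPM, Gjb2, Gja4 and Gjb1, were far lower than Gja1 and Gjc1.
Gjb2, encoding connexin 26 and known from human hereditary deafness, averaged 16.3 ± 1.05 TPM. Gja4, encoding connexin 37 of endothelium and ovarian follicles, averaged 15.2 ± 0.994 TPM. Their ranges over the libraries overlapped.
Gjb1, encoding connexin 32, is the connexin of uncompacted myelin in mature Schwann cells, and its mutations cause the X-linked form of Charcot-Marie-Tooth neuropathy in humans. It was at 11.5, 13.2 and 12.3 TPM in libraries 1, 2 and 3, lower than Gjb2 in each of them, with a log2 ratio to Gjb2 of -0.41 ± 0.06. Gja1 exceeded Gjb1 by 4.01 ± 0.11 log2 units, or 16.2-fold.

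By summed TPM, the 18 connexins analysed, without Gjc3, came to 315 ± 0.825 TPM. Gja1 made up 63.0 ± 0.966% of that sum and Gjc1 22.5 ± 0.842%, so the pair accounted for most of this sum in every library. Gjb2, Gja4 and Gjb1 made up 5.17 ± 0.324%, 4.83 ± 0.329% and 3.90 ± 0.269%.

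Of the 18 connexins 6 had no count and were not tested. Of those tested 5 were above 1 TPM by limma, where 78.4% of all genes tested were above. The other 13 connexins were low or had no count. Gjb5, a connexin gene of skin and placenta in rodents, was at 1.33, 0.713 and 0.890 TPM from 17 counts in all, and its limma adjusted p against 1 TPM was 0.779. A further 6 were below 1 TPM by limma, where 17.8% of all genes tested were below. Among these 6 were Gja3 (lens) at 0.393 ± 0.117 TPM from 13 counts, Gjb6 (astrocytes and cochlea) at 0.216 ± 0.160 TPM from 8 counts, and Gja10 with 1 count. The last 6 had no count, among them Gja5, Gja6, Gjd2, Gjd4 and Gje1. Gjd2 is the main connexin of electrical synapses between neurons, and Gja5 is a connexin of arterial endothelium and atrium. A count of 3 in a library would have been 0.132 to 0.706 TPM in these 5 genes, depending on length and library. Lower levels could still have given a count, so this is not a detection limit. By 95% exact Poisson intervals, the pooled level was at most 0.0566 TPM in Gja5, the lowest limit of the 5. The highest limit was 0.282 TPM, in Gje1.

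Among pannexins Panx1 carried nearly all of the signal. Panx1, an ATP-releasing channel, was at 27.8, 29.2 and 27.2 TPM in libraries 1, 2 and 3, and made up 96.4 ± 0.345% of pannexin TPM. Panx2, a pannexin best known from the nervous system, was at 1.16, 1.05 and 0.947 TPM, close to 1 TPM in every library (limma adjusted p = 0.636). Panx3, known from bone and skin, had no count, and Panx1 was at least 157-fold higher with Panx3 set at 3 counts in each library. Gja1 exceeded Panx1 by a log2 ratio of 2.82 ± 0.05.

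Of 22 claudins 14 had a count, and 5 of the 14 were above 1 TPM by limma, where 78.4% of all genes tested were above. Cldn11 was the highest. Cldn11 encodes a claudin first known from oligodendrocyte myelin and the testis barrier. It was at 44.2, 44.7 and 45.7 TPM in libraries 1, 2 and 3, a mean of 44.8 ± 0.768 TPM. It made up 41.8 ± 0.761% of the summed claudin TPM of 107 ± 1.7 TPM. In rn6, Cldn11 (NCBI gene 84588) spans chromosome 2 positions 115823541 to 115836846 (minus strand, 3 listed exons).

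Cldn12, a widely expressed claudin, was at 24.7, 23.5 and 24.7 TPM in libraries 1, 2 and 3. Cldn1, the claudin of epidermis and of the perineurium, was at 23.8, 21.7 and 23.1 TPM, and its range overlapped that of Cldn12. Cldn12 and Cldn1 made up 22.7 ± 0.313% and 21.3 ± 0.724% of claudin TPM.

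Cldn19 is the claudin of Schwann cell tight junctions, whose loss slows nerve conduction in mice. It was at 9.09, 8.21 and 9.39 TPM in libraries 1, 2 and 3. All 3 values were under those of Cldn11, by a log2 ratio of Cldn11 to Cldn19 of 2.34 ± 0.09, or 5.05-fold. Cldn15, a pore-forming claudin of the intestine, averaged 4.15 ± 0.869 TPM from 60 counts and had the highest limma adjusted p of the 20 genes above 1 TPM, 7.6e-06.

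Another 9 claudins were below 1 TPM by limma, where 17.8% of all genes tested were below. Cldn23 was the highest of them at 0.572 ± 0.204 TPM (adjusted p = 0.00608), and without library 1 it no longer passed (adjusted p = 0.0563). Cldn14 (inner ear and kidney), at 0.335 ± 0.260 TPM, likewise did not pass without library 1 (adjusted p = 0.0774). The epithelial claudins Cldn4 and Cldn7 had 10 and 3 counts in all, the kidney claudin Cldn16, a partner of Cldn19 in the renal tubule, had 8, and Cldn6, Cldn9, Cldn10 and Cldn20 had 2 to 10. The remaining 8 claudins had no count: Cldn2, Cldn3, Cldn5, Cldn8, Cldn17, Cldn18, Cldn22 and Cldn24.

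Cldn5, the dominant claudin of brain and nerve endothelium, was among those with no count. A count of 3 in a library would have been 0.285 to 0.306 TPM. With Cldn5 set at that level, Cldn19 was at least 29.8-fold higher and Cldn1 at least 76.6-fold higher.

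**Figure D2:**
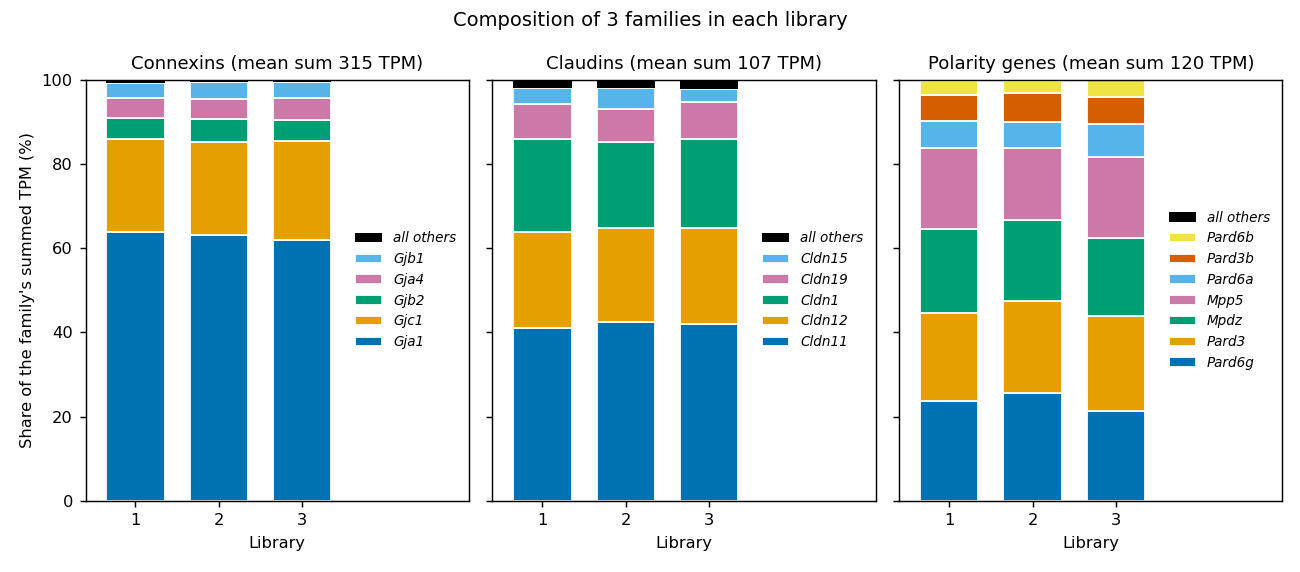
Share of each family's summed TPM (%) held by each gene with a mean share above 1%, as stacked bars for libraries 1, 2 and 3; black is the rest of the family. Gja1 holds 63.0% of the TPM of the connexins analysed, which leave out Gjc3. Cldn11 holds 41.8% of claudin TPM, whereas no polarity gene exceeds 25.6% of its family in any library.

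Of the ZO scaffold genes, which tie claudins to actin, 2 were above 1 TPM and 1 below, and the MARVEL-domain membrane proteins were near zero. Over all genes tested 78.4% were above and 17.8% below, and with 3 ZO genes nothing is read from these counts. Tjp1, encoding ZO-1, was at 78.4, 74.0 and 75.4 TPM in libraries 1, 2 and 3. Its values lay close together, and it was second to Gja1 over the whole set. Tjp3, whose product ZO-3 is largely restricted to epithelia, was at 0.431 ± 0.0995 TPM, below 1 TPM by limma (adjusted p = 0.000309). It had 9, 11 and 7 counts, far under Tjp1 in every library. One exon of Tjp3 shares 58 bases with Apba3 on the opposite strand, which was at 72.1 TPM, and how strand was treated in counting is not given, so the Tjp3 level is uncertain. No other member shares exon bases with another listed gene.

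Ocln, encoding occludin, the first tight junction membrane protein described, had 1, 1 and 3 counts in libraries 1, 2 and 3, which is 0.033, 0.035 and 0.106 TPM. Marveld2, encoding tricellulin, found where corners of cells meet, had 2, 2 and 3 counts, or 0.131, 0.140 and 0.210 TPM, and Marveld3 had none. Ocln and Marveld2 were below 1 TPM by limma (adjusted p of 2.93e-06 and 8.24e-06). The pooled level of Ocln was at most 0.134 TPM by its 95% exact Poisson interval.

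Of the 9 polarity genes, all with a count, 7 were above 1 TPM by limma, a share near the 78.4% of all genes tested. Pard6g, one of 3 genes for the PAR6 adaptor that binds atypical protein kinase C, was at 30.3, 29.7 and 25.0 TPM in libraries 1, 2 and 3. Library 3 lay under the others, and the range overlapped that of Panx1. Pard6a and Pard6b averaged 8.17 ± 1.15 and 4.04 ± 0.680 TPM, with log2 ratios to Pard6g of -1.80 ± 0.34 and -2.82 ± 0.36, so Pard6g was the highest PAR6 gene in every library.

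Pard3, encoding the PAR3 scaffold that recruits the neurotrophin receptor p75 to the axon-glia contact in rat Schwann cell cultures, was at 26.6, 25.4 and 26.3 TPM. Its relative Pard3b averaged 7.88 ± 0.347 TPM, and the log2 ratio of Pard3 to Pard3b was 1.73 ± 0.09, or 3.31-fold.

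Mpdz and Mpp5 encode PDZ-domain scaffolds linked to the Crumbs complex, and Mpp5 (Pals1) is needed for normal myelination in mice. They were at 23.3 ± 2.04 and 22.2 ± 2.32 TPM. Their ranges overlapped, and the log2 ratio of Mpp5 to Mpdz was -0.07 ± 0.10, within the spread between libraries. The genes of Crumbs membrane proteins were far lower. Crb2 had 15 counts in all, at 0.184 ± 0.0304 TPM, and Crb3 had 2, at 0.0857 ± 0.0743 TPM, both below 1 TPM by limma. The ratio of Crb2 to Crb3 was 2.13 with a 95% exact interval of 0.495 to 19.2, so their order was not resolved at this depth.

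Over the whole set, the order of levels was partly resolved. Of the 19 neighbouring pairs among the 20 genes above 1 TPM, ranges over the 3 libraries were apart in 11 and overlapped in 8. Gja1 was apart from Tjp1, Tjp1 from Gjc1, and Cldn11 from Pard6g, whose range overlapped that of Panx1. From Cldn12 through Mpdz and Cldn1 to Mpp5 each gene overlapped its neighbour. Of 20 fixed pairs of members, 2 involved Gjc3, and 2 (Ocln to Marveld2 and Ocln to Marveld3) had both genes at or under 3 counts in every library.

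Genes whose products work with these proteins were read from 3 lists, beside the 78.4% of all genes with a count that were above 1 TPM. In a list of other tight junction proteins and regulators, 16 of 18 genes with a count were above 1 TPM by limma, 2 were below, and another 2 had no count. The highest were the ZO-1-associated factor Ybx3 at 496 ± 11.9 TPM, the small GTPase Rab13 at 158 ± 3.88 TPM and the adhesion receptor Cxadr at 115 ± 7.66 TPM. Esam, an endothelial adhesion molecule, at 0.339 ± 0.0860 TPM, and Magi2 at 0.567 ± 0.0782 TPM were below, and Igsf5 and Ildr1 had no count.
In a list of polarity partners, 12 of 14 genes with a count were above 1 TPM, led by the GTPases Cdc42 at 632 ± 17.8 and Rac1 at 528 ± 17.7 TPM and the scaffold gene Lin7c at 119 ± 6.38 TPM. Lin7a had 1 count, at a mean of 0.0687 ± 0.119 TPM, and was below, Lin7b passed in neither direction and Crb1 had no count, so none of the 3 Crumbs genes examined reached 1 TPM in any library. In a list of connexin-binding and regulating proteins all 6 measured genes were above 1 TPM, including the ubiquitin ligase Nedd4 at 1030.1 ± 18.6, the actin-binding Dbn1 at 243 ± 5.22 and the kinase Src at 151 ± 5.92 TPM. With lists this short, nothing particular to the partners is read from these shares.

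Several members are known from other cells that a ganglion culture can hold, and markers of those cells were measured in the same libraries. Over all genes with a count, 78.4% were above 1 TPM by limma and 17.8% below, so being above 1 TPM was the usual outcome. All 6 fibroblast markers were above 1 TPM, with sums of 8283 to 8483 TPM, and none was at 0. The 8 Schwann lineage markers had sums of 10047 to 10279 TPM, so the fibroblast sums were not far under these. Fibroblasts also express Gja1. Of 6 perineurial markers 3 were above 1 TPM (Crabp2 at 594 ± 19.4, Itgb4 at 236 ± 3.34 and Slc2a1 at 49.5 ± 2.26 TPM), with sums of 864 to 901 TPM. Krt19 and Mpzl2 were below 1 TPM and Lypd2 had no count. These stand beside Cldn1 at 22.9 ± 1.05 TPM. Of 10 endothelial markers 4 were above 1 TPM (Cdh5 at 16.6 ± 1.03, Emcn at 13.7 ± 0.836, Tek at 4.69 ± 0.211 and Erg at 2.42 ± 0.904 TPM) and 6 below, with sums of 36.5 to 39.5 TPM and Pecam1 at 0.0693 ± 0.0695 TPM. These stand beside Gja4 at 15.2 TPM and beside Cldn5 and Gja5 with no count. Of 9 epithelial markers 2 were above 1 TPM, Cdh1 at 33.3 ± 1.87 and Krt8 at 3.21 ± 0.249 TPM, with sums of 35.0 to 38.3 TPM, and Esrp1 and Grhl2 had no count.
All 8 sensory neuron markers were above 1 TPM, with sums of 747 to 771 TPM, beside Gjd2 with no count. Of 6 macrophage markers 3 were above, with sums of 21.4 to 25.1 TPM. What part these cells had in the levels of junction genes was not tested.

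Several members lie side by side in the genome, and neighbours differed widely in level. With neighbours defined as members less than 150 kb apart in rn6, 19 members fell into 8 groups. In 3 of these groups a gene had at least 1 TPM in every library, and in each of the 3 it was a single gene. On chromosome 5, Gja4 (145374688 to 145377221) was at 15.2 ± 0.994 TPM, while Gjb5, whose start lies 47.7 kb away, was at 0.977 ± 0.316 TPM. On chromosome 15, Gjb2 (37377314 to 37383277) was at 16.3 ± 1.05 TPM between Gja3 at 0.393 ± 0.117 and Gjb6 at 0.216 ± 0.160 TPM, within 110 kb. On chromosome 11, Cldn1 (77815216 to 77830371) was at 22.9 ± 1.05 TPM and Cldn16, whose start lies 131 kb away, at 0.254 ± 0.150 TPM. The other 5 groups, among them Cldn6 with Cldn9, Cldn8 with Cldn17, Cldn22 with Cldn24 and Ocln with Marveld2, held no gene at 1 TPM in any library.

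**Figure D3:**
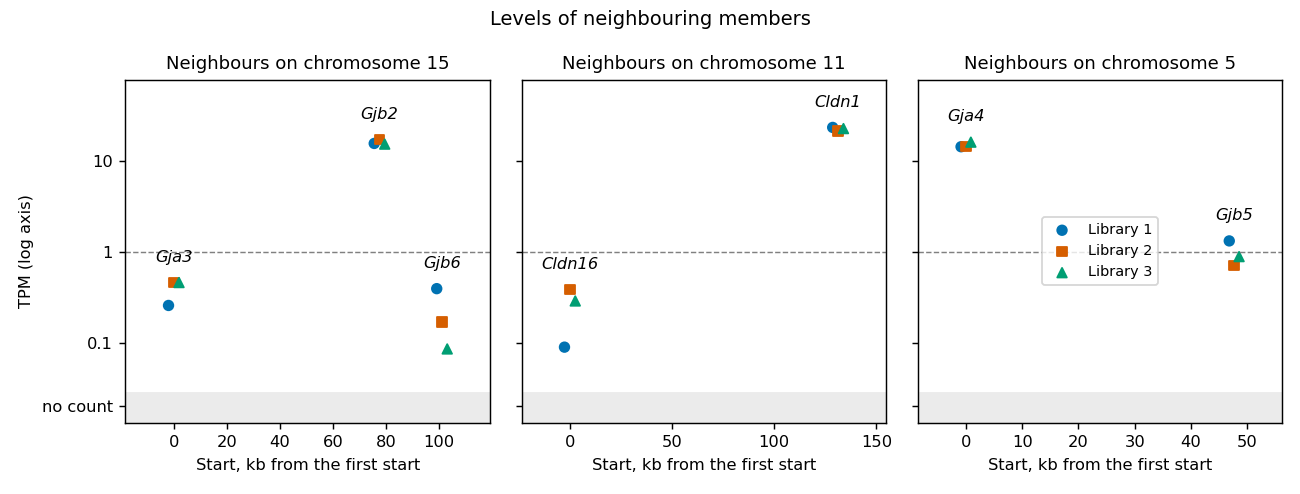
TPM (log axis) of neighbouring members named in the text in each library against the distance of their starts in kb, for the 3 groups with a gene at 1 TPM or more in each library; symbols of the libraries are set slightly apart, and the dashed line marks 1 TPM. Gja4, Gjb2 and Cldn1 lie between 14.6 and 23.8 TPM, and their neighbours at 1.33 TPM or less.

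Pooled over families, detection by number of listed exons followed the order seen over all genes. None of the 16 members with a single listed exon (6 connexins and 10 claudins) reached 1 TPM in every library. Of the 26 members with 2 to 4 listed exons 12 (46.2%) reached it, and of the 16 with 5 or more exons 8 did so. Within the claudins this order did not hold: 4 of 7 with 2 to 4 exons reached it and 1 of 5 with 5 or more. No connexin had 5 or more exons, so exon number and family are mixed. Over all genes listed the shares were 13.5% with 1 exon, 53.8% with 2 to 4 and 71.4% with 5 or more. This split was looked at after the values were seen and is a description with no test.

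**Figure D4:**
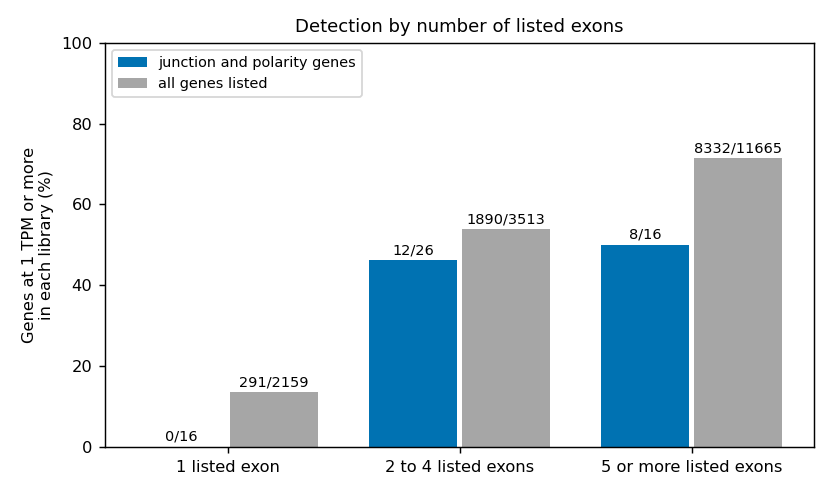
Share of genes at 1 TPM or more in each library (%), by number of listed exons, for the 58 junction and polarity genes (blue) and all genes listed (grey), with counts over the bars. Among the 58 genes 0 of 16, 12 of 26 and 8 of 16 reached that level, and the bars of all genes are at 13.5, 53.8 and 71.4%.

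Promoter sequence was compared between members that were detected and those that were not, as a description. RefSeq windows of 300 bases, from 250 before to 50 after a listed start in the GRCr8 assembly, were matched by gene identifier for 40 of the 58 members. Gjc1, Pard6g and Mpdz were among the members without a matched window. Windows of the highest connexin, of Gjb2, whose neighbours were low, of the highest claudin and of the endothelial claudin with no count are shown, 5′ to 3′ on the gene's strand, with each CG dinucleotide in capitals.
Gja1 (chr20:36302314-36302613, plus strand): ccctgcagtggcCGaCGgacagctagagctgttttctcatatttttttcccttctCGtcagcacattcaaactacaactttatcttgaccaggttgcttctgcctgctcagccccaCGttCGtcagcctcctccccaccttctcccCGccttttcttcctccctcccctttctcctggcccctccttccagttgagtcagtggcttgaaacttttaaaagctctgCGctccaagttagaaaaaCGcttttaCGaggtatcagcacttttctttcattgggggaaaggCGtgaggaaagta
Gjb2 (chr15:35381904-35382203, minus strand): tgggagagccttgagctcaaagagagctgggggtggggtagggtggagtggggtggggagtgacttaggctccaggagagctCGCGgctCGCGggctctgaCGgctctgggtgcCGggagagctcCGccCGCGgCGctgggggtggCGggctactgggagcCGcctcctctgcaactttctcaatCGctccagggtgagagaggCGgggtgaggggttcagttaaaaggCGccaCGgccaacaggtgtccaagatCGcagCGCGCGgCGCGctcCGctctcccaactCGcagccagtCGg
Cldn11 (chr2:114149490-114149789, minus strand): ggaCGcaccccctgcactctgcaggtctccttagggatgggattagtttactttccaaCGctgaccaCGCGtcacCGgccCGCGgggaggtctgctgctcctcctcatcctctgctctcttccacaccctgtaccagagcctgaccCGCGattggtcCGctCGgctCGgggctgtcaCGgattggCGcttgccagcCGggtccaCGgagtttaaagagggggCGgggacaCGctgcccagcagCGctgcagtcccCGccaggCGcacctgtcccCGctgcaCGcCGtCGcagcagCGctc
Cldn5 (chr11:95718549-95718848, minus strand): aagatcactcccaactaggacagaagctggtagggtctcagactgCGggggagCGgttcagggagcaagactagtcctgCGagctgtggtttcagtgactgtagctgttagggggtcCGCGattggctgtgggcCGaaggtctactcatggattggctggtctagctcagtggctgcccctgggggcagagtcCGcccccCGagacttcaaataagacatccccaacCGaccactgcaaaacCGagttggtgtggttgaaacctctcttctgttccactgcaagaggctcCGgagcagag

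Gja1 at 198 TPM had 10 CG dinucleotides in its window and Gjb2 at 16.3 TPM had 25. Cldn11 had 26, and Cldn5, with no count, had 11. Of the genes under 1 TPM beside Gjb2, Gja3 had 38, and the 2 windows of Gjb6 had 25 and 5. The median was 17.5 CG dinucleotides over 16 windows of members with at least 1 TPM in every library and 9 over 26 windows of the other members, with ranges of 1 to 45 and 1 to 38 that overlapped almost wholly. Over all genes matched, the medians were 21 for those at 1 TPM or more and 4 for the others. The GC box letters GGGCGG, searched on both strands, were in 10 of the 16 windows (62.5%) of members at 1 TPM or more and 15 of 26 (57.7%) of the other members, against 64.3% of windows of all genes at that level, 23.5% of windows of the other genes and 33.1% of all windows of the RefSeq table. TATAAA, also on both strands, was in 1 of 16 (6.25%) and 3 of 26 (11.5%), against 6.26% of windows of all genes at that level, 21.5% of windows of the other genes and 14.2% of all windows.

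The 20 genes above 1 TPM varied little between libraries. Their SDs had a median of 5.52% of the mean and reached 20.9% in Cldn15, against 4.49% over all 10513 genes at 1 TPM or more in each library. Divided by the spread that counting alone gives, the median was 0.958 for the 20 and 1.08 for all such genes, and 9 of the 20 exceeded counting spread. Mpdz exceeded it most, by 3.08 times, with library 1 at 25.6 TPM and libraries 2 and 3 at 22.3 and 21.8 TPM. Mpp5 followed at 2.15 times, with 24.4, 19.8 and 22.3 TPM. No gene of the 20 differed more than 2-fold between its highest and lowest library, the widest being Cldn15 at 1.5-fold.

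**Figure D5:**
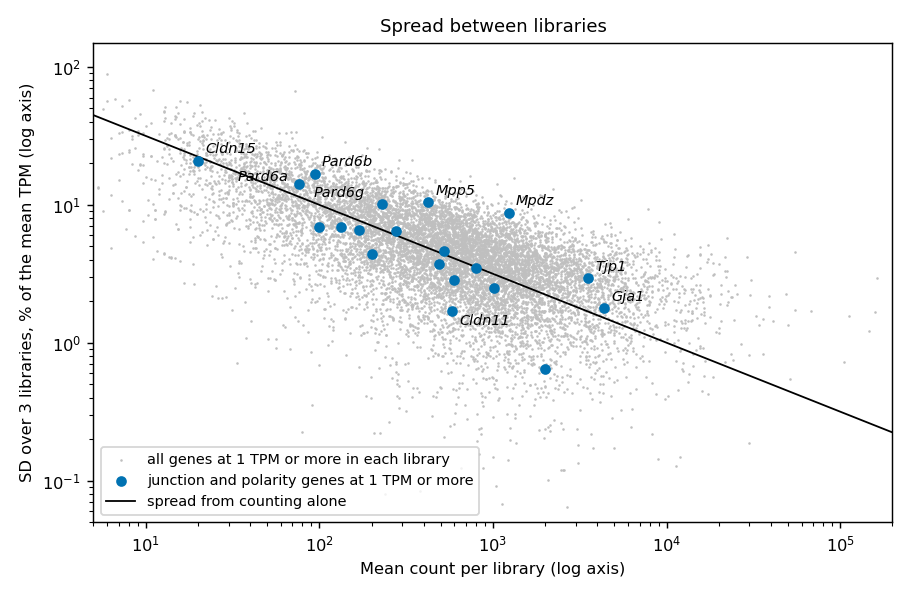
SD over the 3 libraries as a percentage of the mean TPM against mean count per library, both on log axes, for the 20 junction and polarity genes with at least 1 TPM in every library (blue) and all 10513 such genes (grey); the line is the spread from counting alone. The 20 genes lie around the line, 9 of them above it. Mpdz and Mpp5 are the furthest above, and Cldn11 is among those under it.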

How the data were processed

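Libraries of 3 samples of 1 group were made from total RNA with Illumina's stranded TruSeq mRNA kit, per the labels' protocols. The authors deposited raw counts per gene, gene lengths and TPM; the submitters' processing notes list STAR 2.5.2b, Subread and the build rn6. How strand and multiply matching reads were treated, and which annotation was used, are not given, so genes with near-identical copies are uncertain. None of the 58 members is listed at 2 places in the genome, as 278 of all genes are. Counts and lengths gave back the authors' TPM within 0.0005. Count columns were matched to libraries by title. The 6 columns of per-library totals, counts over length, and 2 rows without a gene name were not used.

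Levels were tested with limma 3.58.1 (R 4.3.3) with trend on log2(TPM + 1), over all genes with a count. With this pseudocount of 1 the log2 scale understates differences for low genes. Alternatives were other pseudocounts, filters, levels, variance estimates, scalings (edgeR 4.0.16 TMM and DESeq2 1.42.0 size factors), removal of each library and an F statistic computed from edgeR's quasi-likelihood fit to raw counts, since edgeR's own test does not take a design with an intercept alone. Exons that overlap within a gene were counted as 1. Ratios within pairs had nothing added and no test. Members are given by name or in counts, and a few are not reported here by name; otherwise the 2 highest of each family are given with their value in each library; of partner and marker lists, genes among the 3 highest or under 1 TPM in every library could be named, and Sox10, Erg and Lin7b were named after their values were seen. Members, lists and pairs were chosen with earlier results of these data known. At the median gene length, 3 counts amount to 0.216 TPM in library 1 and 0.232 TPM in libraries 2 and 3.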

Additional observations from a re-analysis of the deposited data

How the results depend on the processing

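The number of members above 1 TPM was 20 under each alternative pseudocount, filter, scaling and variance estimate, against a level of 2 TPM, by the F statistic from edgeR's fit, without genes listed at 2 or more places and without any single library, and 22 against a level of 0.5 TPM. The number below, 20, was 36 with no filter on low values, since the 16 members without a count are then tested, 14 when only genes averaging 0.1 TPM or more were tested, 14 against 0.5 TPM, 22 against 2 TPM and 15 to 20 without single libraries. Over all genes the number below was 6235 with no filter and 1372 under that 0.1 TPM filter, in place of 2374. Against 0.5 TPM the log2 difference of Gjb5 was 0.39 and that of Cldn23 0.059, and against 2 TPM that of Panx2 was -0.55, each with the sign turned by the shift of the level itself. Without library 1 Cldn23 and Cldn14 no longer passed, and 3 low members lost their only counts and were not tested. No level of a member above 1 TPM moved by 1 SD or more under TMM or DESeq2 scaling, nor did a log2 ratio with 0.1 TPM added to each gene. No paired analysis was possible because there is only 1 group. Depth limits statements on members with few counts, and none of the data show which cells carried a transcript.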
